A study of Caenorhabditis elegans with 93 samples.

Results

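The cytochrome P450 genes outside the cyp-35 and cyp-14A groups were followed through 3 mutation accumulation (MA) lineages of the nematode C. elegans. The members are all rows of the RNA-seq table whose name has the form cyp-, a family number, a subfamily letter and a gene number, after names that start with cyp-35 or cyp-14A were left out. This gave 59 genes of 27790 quantified by RNA-seq. For 8 of them antisense 22G-RNAs were quantified, of 8479 genes in the small RNA data, and 68 of 31618 regulatory elements in the ATAC-seq data lay within 2000 bases of the transcript start of 55 of them. P450 genes named after a mutant phenotype, such as daf-9, do not have a name of this form and were not members.

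All samples were embryos of N2, the standard laboratory wild type, with no transgene, mutation or treatment in any group. Lineages A, B and C were grown in parallel at 20 °C on OP50 bacteria and passed on by 2 L4 hermaphrodites per generation. Generation 0 is the pre-mutation accumulation generation, and embryos were collected there and at every second generation from 2 to 20, after adults had been dissolved with hypochlorite. Each lineage and generation has 1 library of each kind, so no group has replicates, and generations of 1 lineage descend from each other. RNA-seq was analysed in 31 libraries, where lineage B has no generation 4 and lineage C no generation 14. In the 31 ATAC-seq libraries, generation 4 is missing from lineage B and generation 8 from lineage C. The libraries are bulk samples of whole embryos, in which fewer cells of a type and less RNA per cell cannot be told apart.

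P450 enzymes are haem proteins that insert an oxygen atom into small lipophilic molecules. Most sit in the membrane of the endoplasmic reticulum and take electrons from NADPH through a reductase, which is EMB-8 in the worm, whereas the mitochondrial form uses a separate electron chain. The family is best known for phase I detoxification of foreign compounds, much of it in the intestine, but individual members also oxidise fatty acids, make steroid hormones or build the eggshell. The cyp-13 and cyp-25 families resemble the human CYP3A drug-metabolising enzymes, and the cyp-29, cyp-31, cyp-32 and cyp-37 families resemble the CYP4 fatty acid hydroxylases.

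RNA libraries held 42039288 to 49318096 reads counted over the genes. The embryonic identity of the pellets was read from marker lists as summed normalised counts. All 9 genes of the early embryo and oocyte list were lower in later generations than in generation 0 by the test described below, and their sum was 34279.7 to 66862 in generation 0, 27359 to 45962 in generation 2 and 16871 to 31403 from generation 4 on. The list for the embryonic intestine, with 7 of its 8 genes in the data, summed to 30396 to 33944 in generation 0, 34724 to 44723 in generation 2, 35626 to 46327 in generation 10 and 39753 to 57595 in the other generations. The muscle list summed to 89985 to 117140.0 in generation 0 and to 102124 to 232407 later. Sums of the cuticle list (235328 to 288463 in generation 0, 267948 to 465021 later), the neuron list (16482 to 21861 and 16555 to 27930.0) and the yolk list (2667 to 3605 and 1901 to 3042) overlapped between generation 0 and later, and sperm genes summed to 5.47 to 52.5 in all libraries, with 4 of the 5 at 0 in at least 1 library. Of the tested genes, 5 of 7 in the intestine list passed against generation 0, 2 higher and 3 lower, and 4 of 4 in the muscle list, 3 higher and 1 lower. In the neuron list 3 of 4 passed, 2 higher and 1 lower, and in the yolk list 2 of 6, 1 in each direction. In the cuticle list 1 of 5 passed and in the sperm list 1 of 1, both higher. Every list thus held genes that differed from generation 0, and only the intestine sums did not overlap between generation 0 and later. The part of these markers in the P450 results was not tested. In 4 libraries (generation 10 of lineage B, generations 12 and 18 of lineage C and generation 16 of lineage A) the fewest genes were at 0 reads, 3478 to 4789.

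Of the 59 genes, 30 lie on chromosome V, 12 on II, 7 on IV, 6 on III, 3 on X and 1 on I (genome WBcel235, Ensembl release 115), and all are annotated as protein coding. With at most 20000 bases between neighbours, 33 of them form 8 tandem clusters. The cluster with the most genes, 8, runs from 9779181 to 9807569 on chromosome II and holds cyp-13A1 to cyp-13A8. Clusters of 6 and 5 genes, of the cyp-34A and the cyp-33C genes, lie on chromosome V at 3955701 to 3972991 and 2236140 to 2252591. Another annotated gene is overlapped by 13 members, and reads were counted without strand, so such reads cannot be told apart from those of the neighbour. They include cyp-44A1 with npp-24 and cyp-37B1 with F28G4.2, which share 24 and 69 exon bases, and cyp-33C12 with Y5H2B.8 and cyp-33D1 with K05D4.11, which share 108 and 94. Genes of a tandem cluster are related in sequence, and how reads that match more than 1 of them were counted is not given in the sources used here.

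Levels of the members differed widely. Per kilobase of transcript, the mean normalised count over the 31 libraries was highest for cyp-42A1 (2165; chromosome V, 18912036 to 18918117), followed by cyp-13B1 (893), cyp-29A2 (683), cyp-44A1 (470.2), cyp-23A1 (463) and cyp-33A1 (443). The ranges over libraries of each neighbouring pair in this order overlapped, so the order is that of the means only, while the lowest library of cyp-42A1 lay above the highest of every other member except cyp-13B1, whose range overlapped it. A mean normalised count of at least 10 was reached by 51 members (86.4%) and by 60.1% of all genes, and the tests cover these 51. The other 8, cyp-13A4, cyp-13A7, cyp-13A8, cyp-13A11, cyp-33C1, cyp-33C6, cyp-33D3 and cyp-34A10, had at least 1 library with 0 reads for 7 of them, and 0 reads allow up to 3 by counting error alone. Neighbours in a cluster were not alike in level. Within the cyp-13A cluster the mean per kilobase went from 0.894 for cyp-13A8 to 82 for cyp-13A2, and within the cluster of 6 cyp-34A genes from 0.892 for cyp-34A10 to 91.6 for cyp-34A9.

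**Figure D1:**
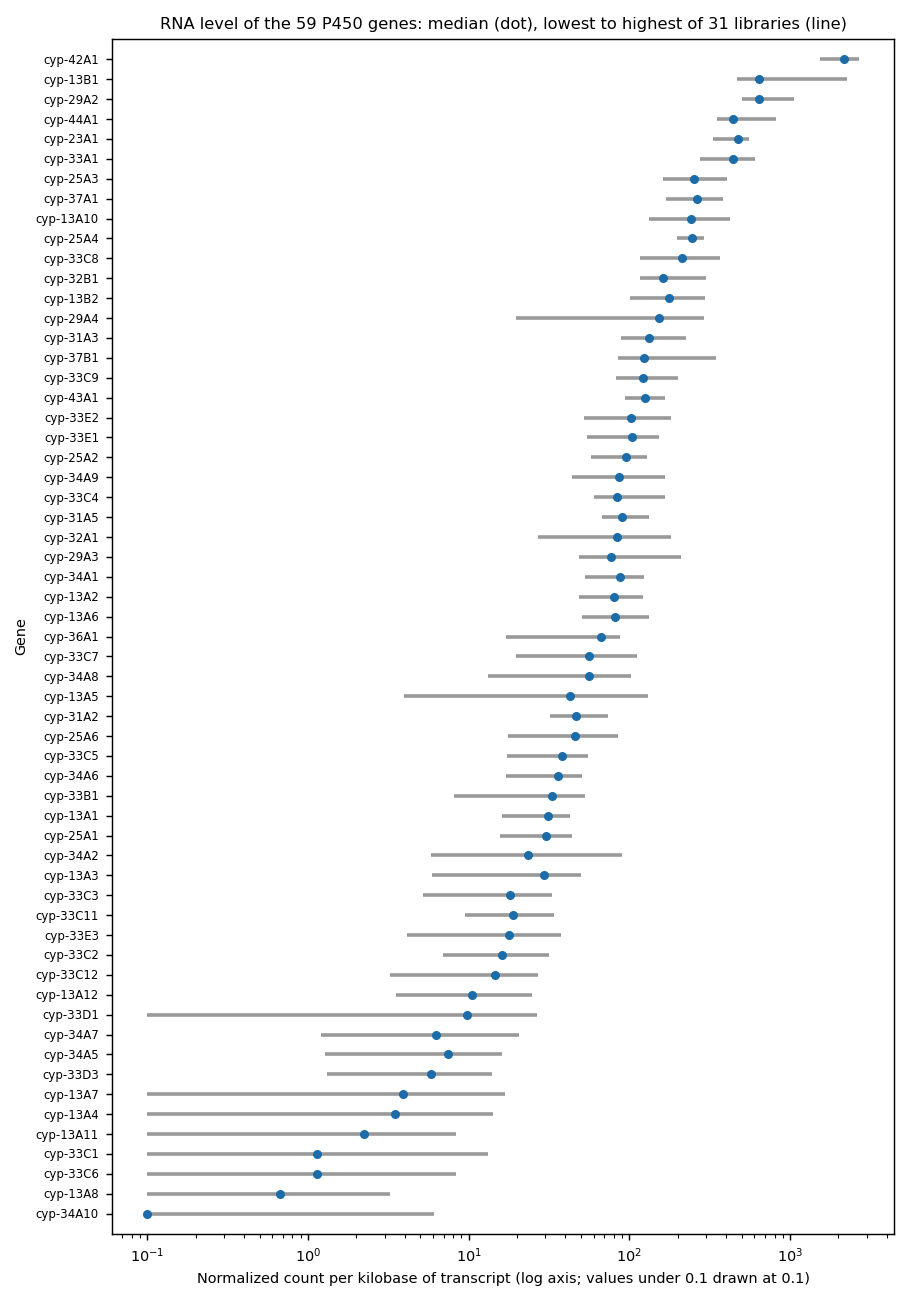
RNA level of the 59 P450 genes as normalised count per kilobase of transcript on a log axis. Dots are medians and lines run from the lowest to the highest of 31 libraries, with cyp-42A1 at the top, and the 8 genes with a mean under 10 fill the lower end together with other members of the cyp-13A, cyp-33C, cyp-33D and cyp-34A groups.

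The first comparison asked which members differed between the later generations and generation 0. RNA of cyp-29A3, which makes oxidised derivatives of eicosapentaenoic acid, was 329 in lineage A, 338 in B and 367 in C at generation 0 in normalised counts, 189, 215 and 209 at generation 2, and 84.5 to 182, median 116, at generations 4 to 20. All 3 generation 0 values were above all 28 later ones, and the generation 2 values lay between. The later level was lower by 2.66-fold (log2 difference -1.41 ± 0.21, SE, on the log2(normalised count + 1) scale; adjusted p = 7.5e-06, limma over 16714 genes, blocked by lineage and adjusted after Benjamini and Hochberg). cyp-44A1 (chromosome II, 5504044 to 5505975), the mitochondrial P450 of the worm, stood at 996 in lineage A, 1157 in B and 1270.2 in C at generation 0, at 832, 852 and 829 at generation 2, and at 541 to 822, median 660.0, from generation 4 on. Its 3 generation 0 values were likewise above the other 28, and the log2 difference was -0.74 ± 0.11 (adjusted p = 6.9e-06). These are the 2 members, 3.92% of the 51, whose generation 0 libraries were above all others, a position held by 4.45% of all tested genes, and no member had its generation 0 libraries below all others, against 3.21% of genes.

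In all, 16 of the 51 members (31.4%) passed the threshold of 0.05 after adjustment, with 39.6% of all genes called. Lower later were 10 members (19.6%, background 21.9%) and higher later 6 (11.8%, background 17.7%). The median log2 difference was -0.12 over the members and 0.02 over all genes. The share of called members was thus near or under that of all genes in either direction, and the counts are a description of the members and not a property that sets them apart.

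The other members that fell fit into 3 groups of families. Of the cyp-13 and cyp-25 families, cyp-13B1 went from 2784 in lineage A, 2003 in B and 2734 in C to 777 to 3753, median 1056, and it returned to high values in generations 2 and 10, as described further on. cyp-13B2, its paralogue on the X chromosome, was 368 in lineage A, 408 in B and 527 in C at generation 0 and 181 to 461, median 311, later (log2 difference -0.49 ± 0.16, adjusted p = 0.013), and the groups overlapped. cyp-13A2 and cyp-25A6 fell by less than 1 log2 unit, with 256, 273 and 232 and 51.7, 60 and 40.4 at generation 0 and later medians of 177 and 31.2. Of the CYP4-like families, cyp-29A2 went from 1846 in lineage A, 1513 in B and 1359.8 in C to 872 to 1815, median 1099.9 (log2 difference -0.47 ± 0.15, adjusted p = 0.013). Of the cyp-33 and cyp-34 families, cyp-33C4 was 264 in lineage A, 233 in B and 180.4 in C at generation 0 and 95.3 to 189, median 128, later (log2 difference -0.76 ± 0.17, adjusted p = 0.0006). cyp-33C5 and cyp-34A1 fell by 0.59 and 0.49 on the log2 scale.

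Of the 6 members that rose, 5 belong to the cyp-33 and cyp-34 families. cyp-33C12 was 23.1 in lineage A, 15.5 in B and 6.6 in C at generation 0 and 15.5 to 54.9, median 31.1, later (log2 difference 1.10 ± 0.31, adjusted p = 0.0048). cyp-33C7 was 47.1 in lineage A, 60.9 in B and 30.6 in C and then 49.7 to 174, median 90 (log2 difference 1.02 ± 0.25, adjusted p = 0.002). In cyp-33B1 the difference came mainly from lineage C, which was at 12 at generation 0 against 39.7 in A and 35.8 in B, and later values were 27 to 79.4, median 50.4. cyp-34A8 and cyp-33C8 had log2 differences of 0.94 ± 0.36 and 0.54 ± 0.22. The remaining one, cyp-42A1, rose from 3609 in lineage A, 3036 in B and 2797 in C to 3085 to 4889, median 4048, a log2 difference of 0.36 ± 0.09 (adjusted p = 0.0028). Members of the same cluster therefore passed in opposite directions, cyp-33C4 and cyp-33C5 downwards and cyp-33C7 upwards, within 20000 bases on chromosome V.

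The calls rest on 3 libraries of generation 0. With generations 4 to 20 alone as the later libraries, 24 members passed, 14 lower and 10 higher, with 49.3% of all genes. Only cyp-29A3, cyp-44A1 and cyp-33C4 kept their call with each of the 31 libraries and each lineage left out in turn, an alternative for single libraries that was chosen after the data were seen. Without the generation 0 library of lineage A, B or C, 9, 9 and 5 members passed in place of 16, with 37.8%, 26.7% and 19.3% of all genes, and without lineage A, B or C entirely 10, 7 and 4 passed, with 36.3%, 22.3% and 22.4% of all genes. Without the generation 0 library of lineage C, cyp-33B1, cyp-33C12 and cyp-42A1 lost their calls, as did cyp-13B1, cyp-13B2, cyp-13A2, cyp-25A6, cyp-34A1, cyp-34A8, cyp-33C5 and cyp-33C8. Without that of lineage A, cyp-29A2, cyp-13A2, cyp-13B1, cyp-25A6, cyp-34A1, cyp-34A8, cyp-33C5 and cyp-33C8 lost theirs, and without that of lineage B cyp-13A2, cyp-13B1, cyp-13B2, cyp-25A6, cyp-34A1, cyp-33C5 and cyp-33C8. cyp-33C7 lost its call without lineage C. The calls of cyp-33C5 and cyp-33C8 were also lost without single later libraries, 9 and 18 of the 28.

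**Figure D2:**
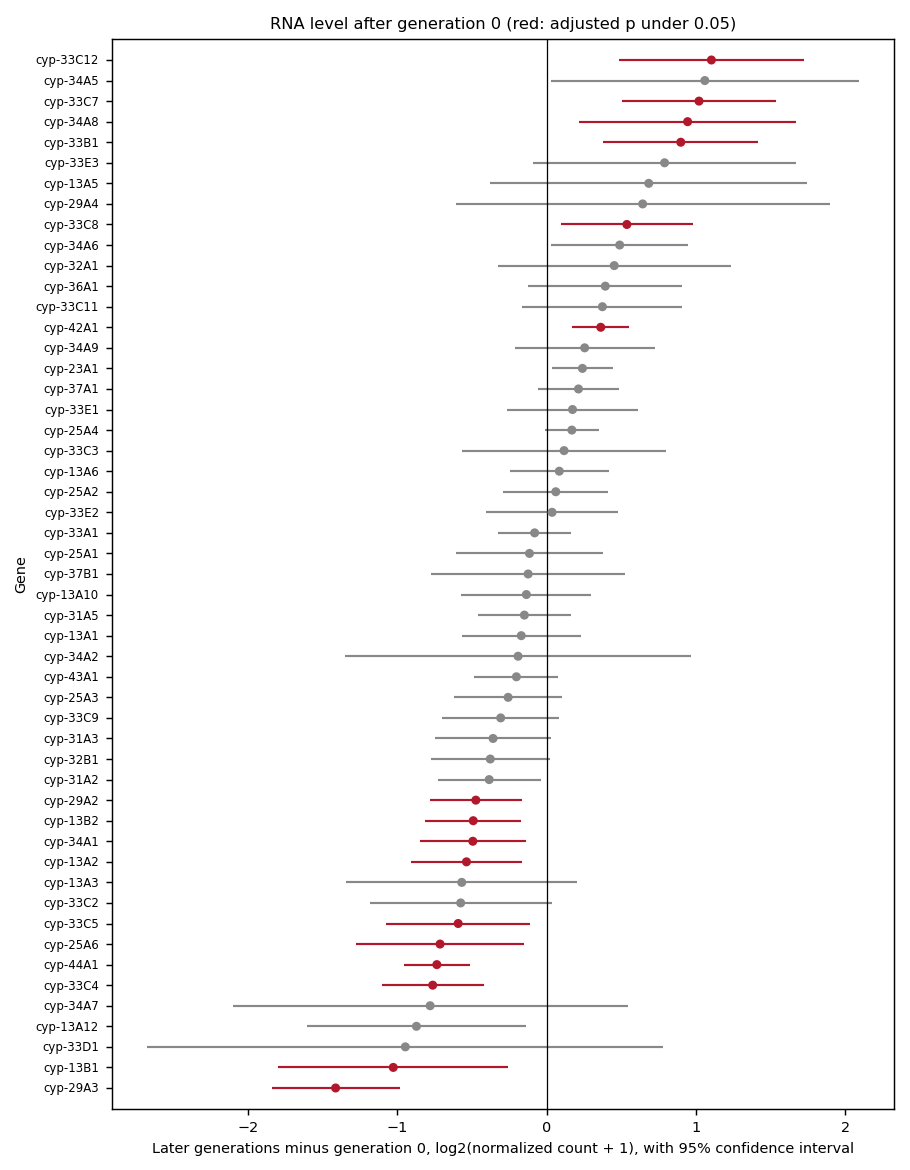
Difference between later generations and generation 0 in RNA level of the 51 tested P450 genes, in log2(normalised count + 1), with 95% confidence intervals from limma. Red genes have an adjusted p under 0.05, 10 on the lower side with cyp-29A3 farthest at -1.41 and 6 on the higher side with cyp-33C12 farthest at 1.10.

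The second comparison asked whether the means of the 10 later generations differed, with lineage as a block. They did for 22 of the 51 members (43.1%) in an F test (limma, adjusted p under 0.05), and for 39.3% of all genes. Such a call does not require that all 3 lineages moved alike. The share of members was near the background. The changes of some members, such as cyp-29A4 and cyp-13B1, were nonetheless large and ran in parallel in the 3 lineages.

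The member with the smallest p was cyp-29A4 (chromosome V, 9654755 to 9658120), of a CYP4-like family. Its normalised count was 188 in lineage A, 129 in B and 119.1 in C at generation 0 and dropped to 34.3, 34.7 and 33.1 at generation 2. At generation 6 it was 309, 293 and 256, at generation 8 232, 203 and 132, and at generation 10 it reached 431, 489 and 348, before it ended at 196, 171 and 192 at generation 20. The 3 generation 2 values were below all 28 others. Of the later generations, generation 10 had the highest geometric mean over lineages (418.6) and generation 2 the lowest (34.04), a 12.0-fold range in normalised count + 1. The adjusted p was 2.4e-12. Like those of the further members in this comparison, it is from the F test over the 10 later generations and not from a test of single generations. Of the related genes, cyp-29A2 was 1724, 1815 and 1163 at generation 2 and cyp-29A3 was 189, 215 and 209, and in neither were these the lowest values of the gene.

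cyp-13B1 (chromosome X, 13406674 to 13409643) moved the other way. It was 2784 in lineage A, 2003 in B and 2734 in C at generation 0, 3502, 3357 and 3753 at generation 2 and 2161, 1367 and 1864 at generation 10, and in every other library it was 777 to 1304. The generation 2 values were above all 28 others, and those of generation 10 were above all libraries outside generations 0 and 2 (adjusted p = 6.6e-11). cyp-37B1, of another CYP4-like family, was also above all other libraries at generation 2, with 547, 599 and 494 against 148 to 313, median 204, in the rest (adjusted p = 1.5e-07). cyp-34A9, which is listed among genes downstream of DAF-16 and also carries the name dod-16, had 258, 279 and 207 at generation 2 and 73.6 to 204, median 143, in the rest (adjusted p = 0.011). These 3 members (5.88%) had generation 2 above all others, against 2.97% of genes. Generation 2 was below all others for cyp-29A4 and cyp-33C8 (3.92%), against 2.14% of genes. No member had its generation 10 libraries above or below all others, as 0.0718% and 0.0479% of genes had.

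A set of cyp-32A, cyp-33 and cyp-34A genes was low at generations 2 and 10 and high at generations 4 and 12. cyp-32A1 was 101, 115 and 122 at generation 2 and 90.4, 61.4 and 73.6 at generation 10, against 224 and 224 in lineages A and C at generation 4 and 306, 199 and 252 at generation 12 (adjusted p = 1.2e-05). Its lowest generation mean was neither of these but that of generation 20, with 75.2 in lineage A, 96.3 in B and 45.9 in C. cyp-34A2 was 17.7, 27.7 and 24.3 at generation 2 and 12.6, 28.5 and 10.4 at generation 10, against 159 and 123 at generation 4 in A and C and 139, 58.7 and 101 at generation 12 (adjusted p = 2.1e-05). In cyp-33C8 the generation 2 values of 204, 214 and 193 rose to 535, 417 and 464 at generation 12 (adjusted p = 5.1e-05).

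cyp-33D1 had few reads throughout, with 1, 0 and 1.1 at generation 2, 3.9, 6 and 0 at generation 10 and 34.1, 30.8 and 13.8 at generation 12 (adjusted p = 0.00013). cyp-34A8 was 20.8, 42.6 and 50.8 at generation 2 and 162, 113 and 163 at generation 12, and cyp-13A5 was 37, 48.4 and 36.3 at generation 10 and 216, 86.6 and 110.5 at generation 12. cyp-33E2, a P450 of the pharynx that makes eicosanoids, was 149, 122 and 88.4 at generation 2 and 306, 236 and 208 at generation 12 (adjusted p = 0.00089), and cyp-33E1 of the same family was 127, 114 and 96.1 and 255, 266 and 215.

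Of the 22 called members, 10 had means at generations 2 and 10 that were both below their mean over the later generations, and 9 had both above. The corresponding shares of all called genes were 39.9% and 42.6%. Among the 10, 9 were at the same time above their mean at generations 4 and 12, namely cyp-13A2, cyp-13A5, cyp-32A1, cyp-33C7, cyp-33C8, cyp-33C9, cyp-33D1, cyp-34A2 and cyp-34A8, and among the 9, 7 were below it there, namely cyp-13A10, cyp-13B1, cyp-29A2, cyp-31A3, cyp-32B1, cyp-37B1 and cyp-44A1. These 2 patterns occurred in 27.3% and 24.7% of all called genes. They were chosen after the values were seen and were not tested. Marker sums differed between the same generations. The intestine list summed to 34724 to 46327 in generations 2 and 10 and to 46338 to 57595 in generations 4 and 12, which did not overlap. The muscle list was 102124 to 179897 in generations 2 and 10, 106934 and 161849 in generation 4 and 190585 to 232407 in generation 12. The early embryo list was 20606 to 45962 in generations 2 and 10, 22017 and 23672 in generation 4 and 18305 to 20564 in generation 12. The part of these markers in the pattern was not tested. The labels name no batch of growth, extraction or sequencing.

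Values of 3 further called members follow. cyp-32B1 was 399, 427 and 496 at generation 2 and 327, 391 and 388 at generation 10, against 243, 289.6 and 265 at generation 12 (adjusted p = 9.4e-05). cyp-13A10 was 625, 707 and 449 at generation 2 and 301, 399 and 384 at generation 12 (adjusted p = 0.0011). Both were thus higher at generation 2 than at generation 12 in each lineage. cyp-13A3, of the cluster on chromosome II, had its highest generation mean at generation 4 (72.5) and its lowest at generation 2 (16.7), as geometric means over lineages (adjusted p = 0.00043).

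Left out one at a time, the 3 lineages mattered unequally: 8 members passed without lineage A, 15 without B and 24 without C, with 4.80%, 21.6% and 43.1% of all genes. With each library left out in turn, between 17 and 25 passed, with 30.6% to 56.3% of all genes. Without generation 2 there were 17 calls, without generation 10 there were 22, and without both there were 14 in place of 22, with 43.1%, 34.9% and 36.7% of all genes. cyp-29A4, cyp-13B1, cyp-37B1, cyp-32A1 and cyp-33D1 passed with each lineage, each library and each generation left out, and also without generations 2 and 10 together. cyp-32B1 and cyp-33C8 also passed with each lineage, library and single generation left out. Without generations 2 and 10 together they lost the call, as did cyp-13A5. cyp-29A2, cyp-29A3, cyp-34A9 and cyp-44A1 lost the call without generation 2, as did cyp-13A2 and cyp-31A3. The call of cyp-33C9 was lost without generation 12, that of cyp-31A3 also without generation 12 or 16, and that of cyp-13A2 also without generation 10 or 18. Single libraries that ended a call were generation 2 of lineage A for cyp-13A2, generation 2 of lineages A and B for cyp-29A2, cyp-29A3 and cyp-44A1, and 11 of the 28 for cyp-31A3.

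**Figure D3:**
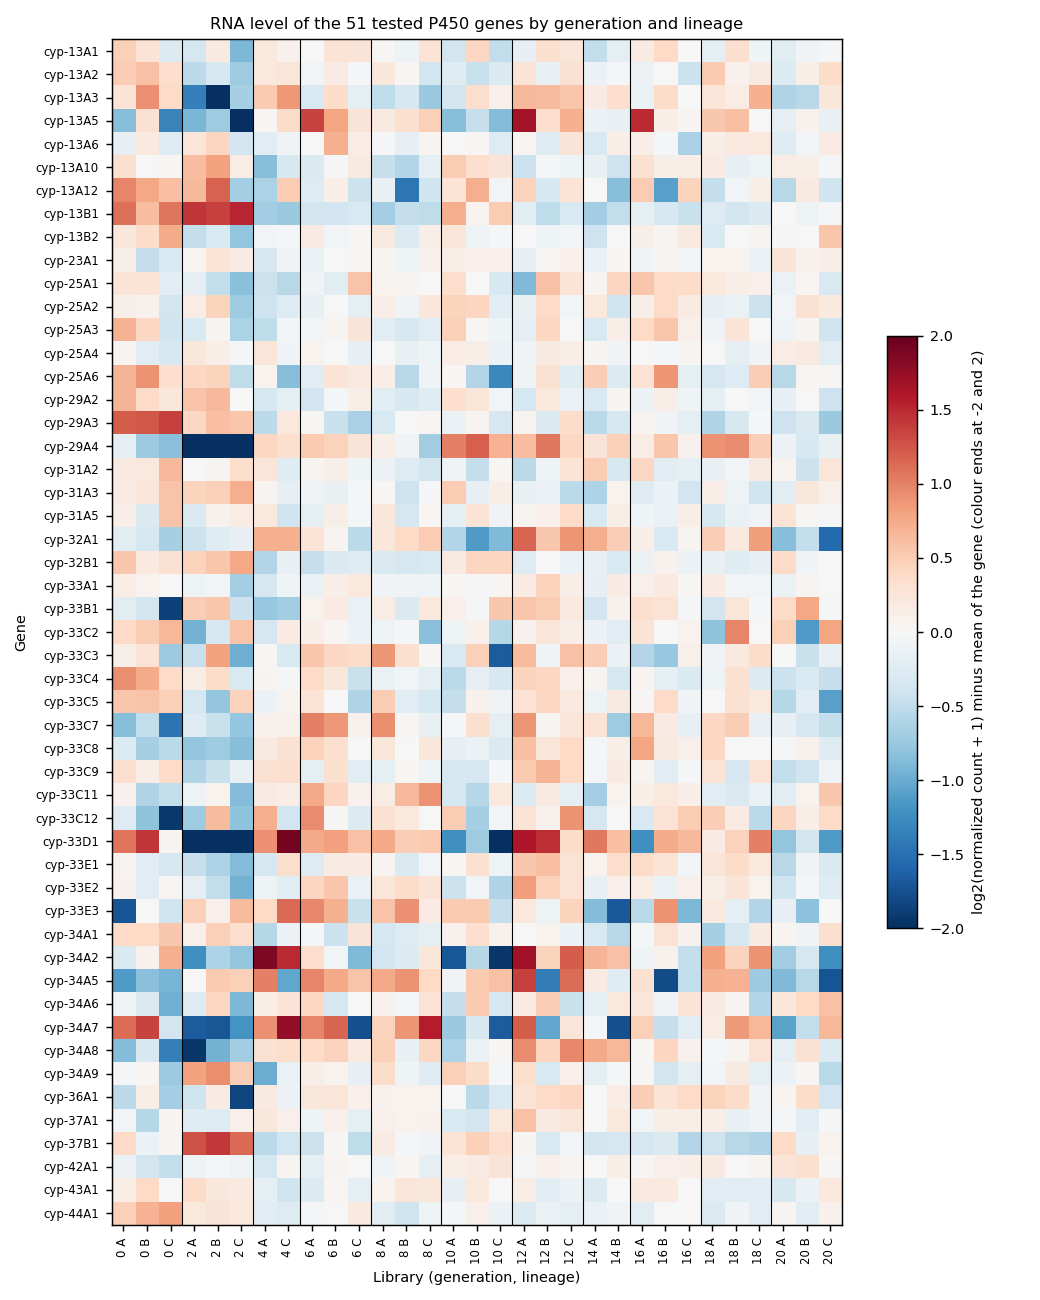
RNA level of the 51 tested P450 genes in each library, as log2(normalised count + 1) minus the mean of the gene, with libraries ordered by generation and then lineage and genes by family. Columns of 1 generation look alike across lineages, with cyp-29A4 and cyp-33D1 lowest and cyp-13B1 and cyp-37B1 highest in generation 2.

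**Figure D4:**
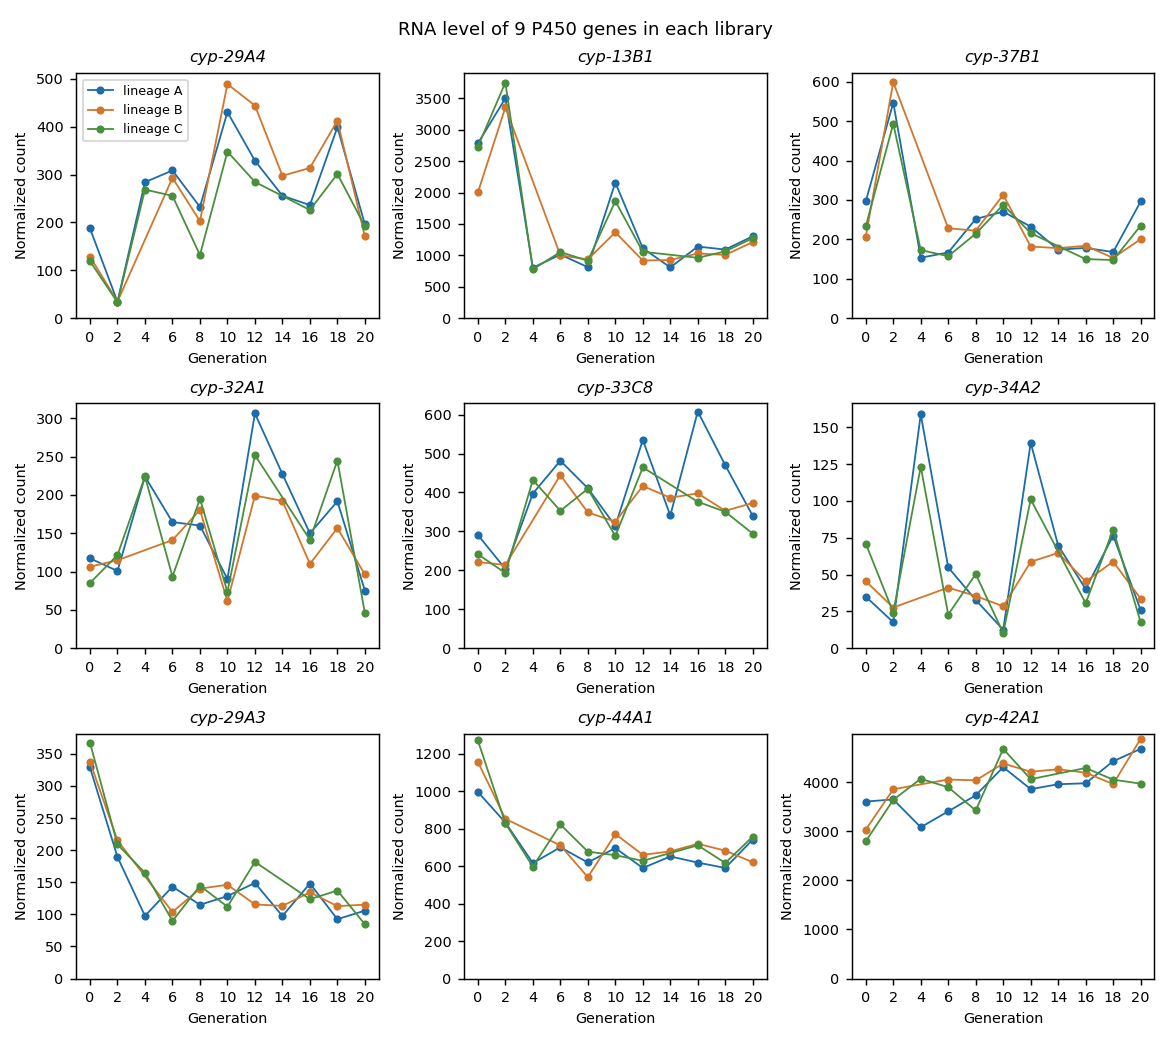
Normalised RNA counts of 9 P450 genes by generation, each point 1 library and each colour 1 lineage. The lines of the 3 lineages follow each other in cyp-29A4, cyp-13B1 and cyp-37B1, and cyp-29A3 and cyp-44A1 start above all their later values.

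No member passed a test for a steady drift. In a fit of generation as a number over generations 2 to 20, 0 of 51 members passed (limma, lowest adjusted p 0.16), 11 had an unadjusted p under 0.05, and edgeR and DESeq2 called 0 as well. Over all genes 0.0239% passed, and 2661 of 16714 had an unadjusted p under 0.05. Between lineages 0 of 51 members passed in the F test over the 3 lineages with generation as a block (lowest adjusted p 0.27), with 6 at an unadjusted p under 0.05. Of all 16714 genes 0.0538% passed, and 1913 had an unadjusted p under 0.05. edgeR called 0 members and DESeq2 called 1, cyp-33C7, in this test, with 0.0718% and 0.317% of all genes. All p-values here measure only the spread between these libraries, and generations of 1 lineage are not independent of each other.

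Several members with a known role in the worm did not pass the comparison with generation 0. cyp-31A2 and cyp-31A3, close paralogues that are needed to make the lipid layer of the eggshell together with emb-8, were 86.8 in lineage A, 88 in B and 120.2 in C and 245 in lineage A, 256 in B and 324 in C at generation 0. Later values were 52.2 to 109, median 73.2, for cyp-31A2 and 142.3 to 359, median 206, for cyp-31A3, with log2 differences of -0.38 ± 0.17 and -0.36 ± 0.19 that did not pass (adjusted p = 0.069 and 0.13). Reads of 1 of these paralogues may be counted for the other, so their separate levels are uncertain. cyp-31A5 was 118 in lineage A, 88 in B and 159.6 in C at generation 0 and 81.8 to 140.3, median 108, later. cyp-36A1, which acts downstream of the oxygen sensor EGL-9 and of HIF-1, was 75.7 in lineage A, 118 in B and 67.8 in C at generation 0 and 29.8 to 154, median 118.6, later, with its lowest value in generation 2 of lineage C, and it passed neither of these comparisons. cyp-13A12, which acts in the behavioural response to reoxygenation, was 36.9 in lineage A, 31.9 in B and 28.4 in C at generation 0 and 6.1 to 42.6, median 17.6, later (log2 difference -0.87 ± 0.36, adjusted p = 0.052).

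Other well-read members passed none of the RNA comparisons. cyp-25A4 was 429 in lineage A, 358 in B and 330.1 in C at generation 0 and 356 to 486, median 413, later, a log2 difference of 0.17 ± 0.09. cyp-23A1 was 862 in lineage A, 571 in B and 644 in C and then 624 to 952, median 817 (log2 difference 0.24 ± 0.10), and cyp-33A1 was 778 in lineage A, 738 in B and 694 in C and then 435 to 965, median 695 (log2 difference -0.08 ± 0.12). The later ranges held or overlapped the generation 0 values in all 3. The log2 differences of cyp-37A1, cyp-43A1 and cyp-25A3 were 0.21 ± 0.13, -0.20 ± 0.14 and -0.26 ± 0.18.

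Among members with a mean of at least 10 the largest SD of log2(normalised count + 1) over the 31 libraries belonged to cyp-33D1 (1.43), cyp-34A7 (1.09), cyp-29A4 (1.01), cyp-34A2 (0.94), cyp-13A5 (0.91) and cyp-34A5 (0.89). The smallest were those of cyp-25A4 (0.14), cyp-23A1 (0.16) and cyp-42A1 (0.18). The median was 0.40 over the members and 0.31 over all genes with a mean of at least 10, and 30 of the 51 members lay above the median of genes of like mean. cyp-34A7 and cyp-34A5, with a mean near the limit, ranged over 1.9 to 32.3 and 2 to 25.6 normalised counts and passed neither test.

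Changes that lasted were counted with Z-scores, which give the distance of the log2 ratio of a library to generation 0 of its lineage from the fitted line over all genes, in SD. Past the cut-off that the study set for this score, in at least 1 library, were 17 of the 59 members, against 32.6% of all 27790 genes, with 9 members on the higher side (23.2% of genes) and 11 on the lower side (16.7%). A run over at least 2 consecutive sampled generations, counted as inherited, was found in 5 members, against 13.4% of genes, 3 of them higher (7.25%) and 2 lower (6.87%). Compared with all genes, the members depended on how low counts were treated: with genes of a mean of at least 10 alone, 11 of the 51 members had an inherited change against 8.29% of genes, and with a pseudocount of 5, 11 of the 59 against 8.60%. The measure has no test, since all generations of a lineage are set against the same library.

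All 5 members of the first count had low counts. cyp-13A4 was at 0 reads at generation 0 of lineage C and past the cut-off there in the 5 libraries from generation 10 to 20, with 6.2, 23.4, 8.5, 23 and 5.2 normalised counts. cyp-34A10 was at 5.8 at generation 0 of lineage B and at 0 in the 5 libraries from generation 12 to 20, which allows up to 3 reads in each. cyp-33E3 was at 3.7 at generation 0 of lineage A and at 29.5, 22.2 and 21.4 in the run from generation 6 to 10. The runs of cyp-33C1 in lineages A and C and of cyp-34A7 in lineage B covered 2 sampled generations each, at no more than 9.7 and 3.8 normalised counts. cyp-29A3, cyp-44A1 and cyp-13B1, with far higher counts, had no run in that first count. The 11 members with a run among genes with a mean of at least 10, and the 11 with a pseudocount of 5, are not listed here. The 8 members with a mean under 10 summed to 46.1 to 74.4 normalised counts in the 4 libraries with the fewest genes at 0 and to 7.73 to 72.1, median 33.1, in the other 27, and the part of these libraries in the runs was not tested.

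22G-RNAs are small RNAs made by RNA-dependent RNA polymerases that map antisense to their target gene. Of the 59 P450 genes, 8 had a row in the small RNA data, and the others have no 22G-RNA value there. Small RNA libraries held 106897 to 1611500 antisense 22G-RNA reads counted over the genes, and the one of generation 4 of lineage A held the fewest. Of the 8 members with a row, 5 had a mean normalised 22G-RNA count of at least 10, as had 6180 of all 8479 genes with a row. cyp-33C11 had 42.4 in lineage A, 43 in B and 60.9 in C at generation 0 and 21.8 to 59.7, median 45.4, later. cyp-33C2 had 13.1 in lineage A, 31.3 in B and 26.3 in C and then 9.3 to 60.7, median 28.7. cyp-44A1 had 21.6 in lineage A, 24.3 in B and 24.1 in C and then 14.8 to 85.3, median 25, with the highest value in generation 14 of lineage A. Its lowest value was 2 reads in generation 4 of lineage A. The generation 0 values lay within the range of the later ones in all 3 genes, except that of lineage C in cyp-33C11, which was just above it.

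cyp-31A2 and cyp-31A3 ranged from 1.7 to 22.2 and from 0 to 22.2 over all libraries, and cyp-31A5, cyp-33C9 and cyp-33E2 had means of 8.28, 6 and 5.58. Both values of 22.2 were 3 reads in generation 4 of lineage A, the library with the fewest counted 22G-RNA reads. There 1 read equals 7.39 normalised counts, so these highest values rest on few reads. None of the 5 tested members passed in the comparison of later generations with generation 0 (lowest adjusted p 0.94, limma over 6180 genes, of which 1.23% passed) or between lineages (lowest adjusted p 0.32, 9.09% of genes passed). At an unadjusted p under 0.05 there were 0 in either comparison, and edgeR and DESeq2 called 0. The 95% confidence interval of the later difference ran from -0.68 to 0.28 on the log2 scale for cyp-33C11 and from -0.40 to 0.79 for cyp-44A1. Changes within these intervals were not excluded, and the part of depth in their width was not tested.

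Over the 31 matched libraries, RNA and 22G-RNA levels centred within lineage were compared for these 5 members. The correlation was most negative for cyp-33C2 (Pearson's r = -0.55, permutation p = 0.0026, adjusted p = 0.23 over 5540 genes; Spearman's rho = -0.43, permutation p = 0.020). It was -0.39 without the 2 libraries farthest from the median of the 22G-RNA level. The r of the other 4 lay between -0.14 and 0.15. After adjustment 0 of the 5 members and 0.126% of genes passed.

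Accessibility was measured by ATAC-seq, in which a transposase cuts open chromatin. Of the 68 elements assigned to members, 46 lay within 200 bases of the transcript start, and 10 genes had more than 1 element. Their mean normalised counts ran from 16 to 842, with a median of 90.2 against 118 over all elements. Across the 55 genes the level of the nearest element and the RNA per kilobase were weakly related (Spearman's rho = 0.26, as a description).

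Most elements of members had more signal in later generations than at generation 0. The difference was above 0 in 58 of the 68, against 47.0% of all elements, and its median was 0.22 on the log2 scale against -0.02. No single element passed (0 of 68, lowest adjusted p 0.16, and 0% of the 31498 tested elements). At an unadjusted p under 0.05 there were 15, against 11.4% of all elements, edgeR called 0, and DESeq2 called 2, the elements of cyp-13A12 and cyp-13A8, and 1.09% of all elements. The element 64 bases upstream of the start of cyp-13A12 had 59.8 in lineage A, 89.6 in B and 68.8 in C at generation 0 and 58.5 to 167, median 107, later (log2 difference 0.58 ± 0.16, adjusted p = 0.16). The one 173 bases upstream of cyp-13A8 had 49.7 in lineage A, 82.4 in B and 63.8 in C at generation 0 and 63.9 to 122, median 92.5, later. In both elements the groups overlapped. With lineage A, B or C left out, 53, 58 and 52 of the 68 differences were above 0, with medians of 0.14, 0.27 and 0.21. At an unadjusted p under 0.05 (limma) there were then 5, 13 and 15 elements. All elements share the same 3 libraries of generation 0, and 10 genes have more than 1 element. The elements are thus not independent, and the count above 0 is a description that was not tested. The comparison was with all elements and not with those as near to a start. Libraries of generation 0 held 7625441 to 9472742 reads counted over the elements and later ones 2995631 to 12251653, and the part of this depth was not tested.

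At cyp-29A3, whose RNA fell, the element 51 bases upstream of the start did not pass and had 17.9 in lineage A, 53.4 in B and 33 in C at generation 0 and 29.4 to 93, median 53.5, later (log2 difference 0.70 ± 0.25, adjusted p = 0.25). The element 59 bases upstream of cyp-44A1 had 43.5 in lineage A, 52.3 in B and 23.6 in C at generation 0 and 38.4 to 79.3, median 55.2, later (log2 difference 0.56 ± 0.20, adjusted p = 0.26). At cyp-33C9 the element 8 bases upstream had 8.54 in lineage A, 27.8 in B and 44.4 in C at generation 0 and 24.1 to 66.5, median 37.1, later (log2 difference 0.73 ± 0.26, adjusted p = 0.24), with lineage A lowest. RNA of cyp-33C9 was 254 in lineage A, 222 in B and 262 in C at generation 0 and 133 to 323, median 194, later (log2 difference -0.31 ± 0.19, adjusted p = 0.21). Between lineages 0 of 68 elements differed (lowest adjusted p 0.74, 4 at an unadjusted p under 0.05, 0 by edgeR and 0 by DESeq2), and 0% of all elements passed. Of all 31498 tested elements, 1992 had an unadjusted p under 0.05.

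**Figure D5:**
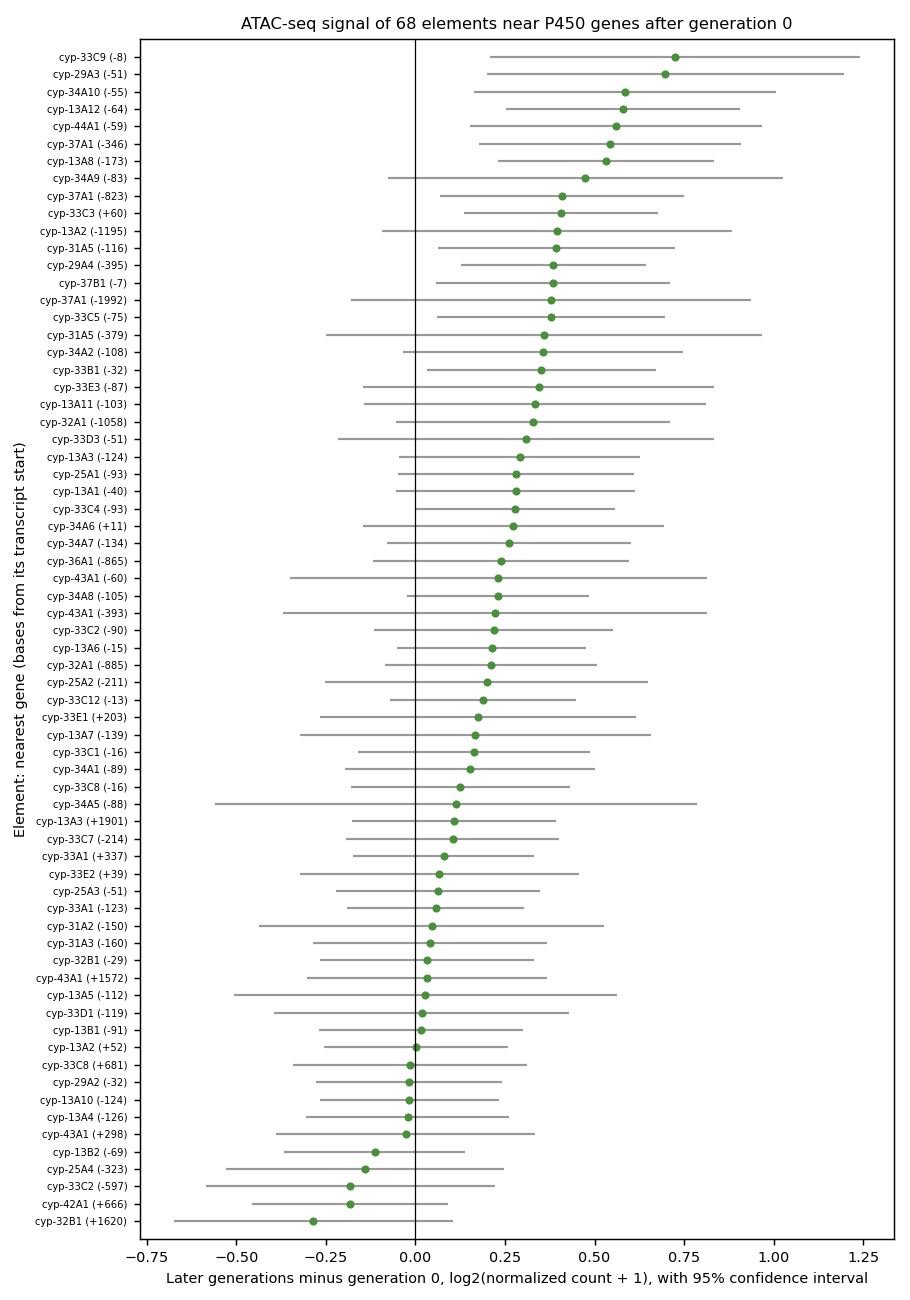
Difference in ATAC-seq signal between later generations and generation 0 for the 68 elements near P450 genes, in log2(normalised count + 1), with 95% confidence intervals from limma. Labels give the nearest gene and the distance to its transcript start, negative upstream, and 58 of the 68 points lie above 0.

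A list of 23 genes that act with P450 enzymes or regulate them was examined beside the members, of which 22 were tested. In the comparison with generation 0, 7 of the 22 passed, with 39.6% of all genes as the background. Higher later were 4, the receptors daf-12 and nhr-8 and the sterol enzymes daf-36 and dhs-16, and lower later were 3, cytb-5.1, nhr-46 and elt-7. nhr-8, a receptor that regulates xenobiotic response and cholesterol balance, was 517 to 672 at generation 0 and 673 to 1474 later (log2 difference 0.68 ± 0.14, adjusted p = 0.00021). daf-12, the receptor for dafachronic acids, was 998 to 1431 at generation 0 and 1330.0 to 2396 later (log2 difference 0.57 ± 0.12, adjusted p = 0.00056). cytb-5.1, a cytochrome b5 that can pass electrons to P450 enzymes, was 3941 to 4484 at generation 0 and 2451 to 4414 later (log2 difference -0.39 ± 0.13, adjusted p = 0.014). The reductase emb-8 did not pass, with 5360.0 to 6036 at generation 0 and 4320.0 to 6124 later (log2 difference -0.06 ± 0.07, adjusted p = 0.52). Between generations 10 of the 22 passed, near the share of 39.3% over all genes. In the same fits 7 of the 10 cyp-35 genes were tested and 7 were lower later, and 3 of the 5 cyp-14A genes were tested and 1 was higher.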

How the data were processed

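RNA-seq, small RNA-seq and ATAC-seq were analysed in 31 libraries each. The deposited values are normalised counts, a signal that the authors made by aligning reads with Bowtie2 (RNA and ATAC, WS252) or Bowtie (22G-RNAs), counting them over coding genes or regulatory elements without strand for RNA, and dividing by DESeq2 size factors. Versions are not given in the sources used here. Values of exactly 1 in the RNA and ATAC tables were read as 0 reads, and all values of these libraries were whole multiples of the value of 1 read, within a tolerance of 0.001, so that read counts were recovered for the alternatives. Features with a mean of at least 10 were tested on log2(normalised count + 1) with limma 3.58.1 (R 4.3.3), with lineage or generation as a block, a mean trend and Benjamini-Hochberg adjustment over all features. edgeR 4.0.16 and DESeq2 1.42.0 on the recovered counts, TMM scaling, other pseudocounts, filters and left-out lineages were alternatives. Correlations used 100000 permutations within lineage, two-sided. Elements were assigned to the gene with the nearest annotated start. The fits were tested on simulated data. Members and lists were chosen with earlier results of these data known. Named were up to 10 called members per fit, 6 by level, spread, run length or 22G-RNA, and members with a known role.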

Additional observations from a re-analysis of the deposited data

How the results depend on the processing

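With 3 libraries at generation 0 and 1 library per lineage and generation, the comparison with generation 0 was the one that depended most on single libraries. With a lineage or a library left out, the members that passed it ranged from 4 to 18, with 19.3% to 45.1% of all genes. With generation 2 left out of the later libraries 24 passed, with 49.3% of genes. With a lineage or a library left out, the members that passed between generations ranged from 8 to 25, with 4.80% to 56.3% of genes. Without generations 2 and 10, 14 passed, with 36.7% of genes. edgeR and DESeq2 called 14 and 16 members in the comparison with generation 0, with 39.54% and 41.9% of all genes. Between generations they called 24 and 30 members, with 38.57% and 51.04% of all genes. With both, cyp-13B1 lost its call against generation 0. DESeq2 called 1 member between lineages (0.317% of genes) and 2 elements in the ATAC-seq comparison with generation 0 (1.09% of elements). The count of inherited changes was 5 (13.4% of genes). It was 8 when the cut-off was lowered to 2 (17.4% of genes) and 1 when it was raised to 3 (3.99%). With a pseudocount of 5 it was 11 (8.60%), and among genes with a mean of at least 10 it was 11 (8.29%). Against the mean of the 3 generation 0 libraries it was 2 (7.80%), and with log2 counts fitted on the generation 0 count 8 (14.4%). With a lineage left out it was 3 to 4 (9.23% to 10.4%). The correlation of RNA and 22G-RNA changed sign for cyp-31A2 without lineage B (r = 0.0271; -0.0448 the lowest with a lineage left out), and for cyp-33C11 without centring (r = 0.0165), over the 28 later libraries (r = 0.0276) and without lineage C (r = 0.265; -0.152 the lowest with a lineage left out). The causes were not tested. Lineage, the pairing of generation 0 with later libraries, was a block in the fits. Without it 17 members passed against generation 0 and 23 between generations, with 39.4% and 37.7% of all genes. Small RNA depth limits the 22G-RNA results.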
